A study of Mus musculus with 17 samples.

Results

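Monocyte chemokines are small secreted proteins that draw monocytes out of the blood into injured tissue, where many of them become macrophages. In the mouse, the proteins encoded by Ccl2, Ccl7 and Ccl12 are ligands of the receptor CCR2, which marks inflammatory monocytes and is also found on other leukocytes such as some dendritic cells. Ccl3 and Ccl4 encode the macrophage inflammatory proteins MIP-1α and MIP-1β, and MIP-1α is a ligand of CCR1. In skin wounds this system is known for bringing in the monocytes that supply the wound with macrophages. The genes described here are 6 ligand genes (Ccl2, Ccl7, Ccl12, Ccl8, Ccl3 and Ccl4) and 2 receptor genes (Ccr2 and Ccr1), found by their symbols in a table of 34140 genes. All 8 were in the table and all 8 passed the filter on low values, which 15271 genes passed.

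The skin of C57/BL6j mice was sequenced after injury, either without radiation (control) or with ionizing radiation (IR), to find molecules that take part in the healing of irradiated wounds. Control skin was taken at day 0 (2 libraries), day 3 (2), day 6 (2) and day 9 (3), and irradiated skin at day 3 (3), day 6 (2) and day 9 (3). There is no irradiated group at day 0. The labels leave out the radiation dose, the kind of wound, and the age and sex of the mice. They also do not say whether the libraries of a group came from separate animals, so p-values measure the spread between these libraries, which may be technical.

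The 17 libraries held 25440773 to 30797409 assigned fragments. Levels are in FPKM, which divides a gene's fragments by its length and by the library's total of assigned fragments. Of summed FPKM, mitochondrially encoded genes took 21.7% to 31.8% at day 0 and 8.3% to 12.6% afterwards. None of 6 keratinocyte markers and none of 15 monocyte markers was at 0 in any library. Replicate 3 of control day 9 stood apart from the other libraries of its group. Its neutrophil markers summed to 8940 FPKM against 1080 and 302 in replicates 1 and 2, its monocyte markers to 410 against 266 and 232, and its dendritic cell markers to 1220 against 501 and 556. Other groups differed within themselves too. In control day 6 the neutrophil markers summed to 19900 FPKM in replicate 1 and 2160 in replicate 2. These neutrophil sums are mostly S100a8 and S100a9, which spanned 591 to 5144 and 1468 to 14576 FPKM in control day 6. No other marker on that list exceeded 58.9 FPKM in that group, so the sum says little about those markers. Cxcr2, for example, was at 9.32 to 16.2 FPKM there. Over all tested genes, the 2 libraries of irradiated day 6 had the lowest Pearson's r within a group (0.945).

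All 6 ligand genes encode CC chemokines, named for a pair of adjacent cysteines near the start of the mature protein. For 5 of the 6, the coding sequence around these codons (GENCODE M21 transcripts, 5′ to 3′) is shown to let the ligands be compared where the family gets its name, and the capitals mark the 2 cysteine codons.
Ccl2: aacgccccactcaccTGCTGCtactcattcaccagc
Ccl7: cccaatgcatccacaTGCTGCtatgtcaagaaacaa
Ccl12: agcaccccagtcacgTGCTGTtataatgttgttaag
Ccl8: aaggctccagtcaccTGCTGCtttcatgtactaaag
Ccl4: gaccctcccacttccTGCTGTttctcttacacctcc
Ccl12 and Ccl4 used TGT for the second cysteine and the other 3 genes shown used TGC for both. Over the coding sequence, Ccl3 and Ccl4 were identical at 69.9% of bases, Ccl7 and Ccl8 at 67% and Ccl2 and Ccl7 at 47%. The coding sequence of Ccl2 has 447 bases against 294 in Ccl7, and the percentage is taken over the length of the longer sequence of a pair. No window of 50 bases in the transcripts of the 6 ligand genes or of Ccr1 occurred in the transcripts of any other gene. In Ccr2, 129 of 6758 windows were shared with 12 other genes. The sources used here do not say how fragments from those windows were assigned.

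In irradiated skin the ligands of CCR2 were more abundant than in day-matched control skin, and the transcript of CCR2 itself was less abundant. Averaged over days 3, 6 and 9 (8 irradiated against 7 control libraries), 4 of the 8 genes rose (Ccl2, Ccl7, Ccl12 and Ccl8) and 1 fell (Ccr2), where 4.36% of all tested genes rose and 2.57% fell. Rose and fell mean a Benjamini-Hochberg adjusted p under 0.05 in limma's moderated test, adjusted over all tested genes. The median log2 fold change of the 8 genes was 1.14, beside -0.01 over all genes tested. Fold changes are differences of log2(FPKM + 1), given with their standard error (SE). Ccl3, Ccl4 and Ccr1 did not pass.

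**Figure D1:**
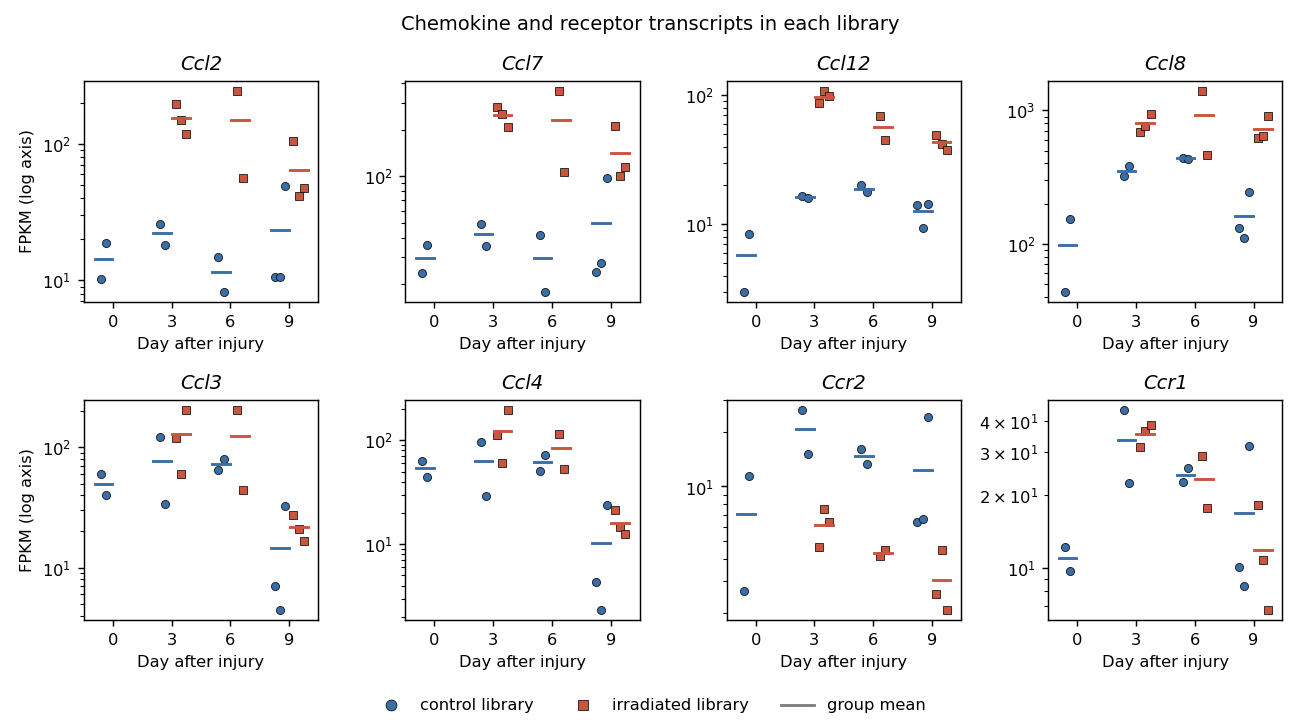
FPKM of each of the 8 genes (log axis) against the day after injury, with 1 point per library (blue circles control, red squares irradiated) and a bar at each group mean. In Ccl7, Ccl12 and Ccl8 every irradiated library lies above every control library of the same day, and in Ccr2 every irradiated library lies below.

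Ccl2 (ENSMUSG00000035385, mm10 chromosome 11, 82035571 to 82037453) encodes monocyte chemoattractant protein 1, the main ligand of CCR2. In control skin it was at 10.2 and 18.8 FPKM at day 0, 26.1 and 18.3 at day 3, 14.9 and 8.23 at day 6, and 10.6, 10.6 and 49.2 at day 9. In irradiated skin it was at 197, 151 and 119.9 FPKM at day 3, 246 and 56.2 at day 6, and 105, 41.7 and 47.5 at day 9. The arms did not overlap at days 3 and 6, and at day 9 they overlapped through replicate 3 of the control, which lay above 2 of the 3 irradiated libraries. The average log2 fold change was 2.57 (SE 0.41, limma adjusted p 0.00281), from 19.7 ± 14.3 FPKM (SD, n = 7) in control to 121 ± 74.1 (n = 8) in irradiated skin. By day it was 2.75 at day 3 (adjusted p 0.0819), 3.29 at day 6 (0.112) and 1.67 at day 9 (0.137), none of which passed. In the order of group means the 3 irradiated groups came first, and each group overlapped the next in that order.

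Ccl7 (ENSMUSG00000035373, chromosome 11, 82045712 to 82047525) lies next to Ccl2 and encodes monocyte chemoattractant protein 3, which also acts through CCR2. Control libraries held 23.5 and 35.9 FPKM at day 0, 49.4 and 35.2 at day 3, 41.6 and 17.8 at day 6, and 23.9, 27.3 and 97.8 at day 9. Irradiated libraries held 283, 253 and 209.6 FPKM at day 3, 357 and 107 at day 6, and 210.5, 101 and 114 at day 9. Every irradiated library was above every control library. The average rise was 2.35 (SE 0.36, limma adjusted p 0.00226), from 41.9 ± 26.9 FPKM (SD, n = 7) to 204 ± 92.7 (n = 8). The rise did not pass within any single day (adjusted p 0.0683 at day 3, 0.118 at day 6 and 0.0901 at day 9).

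Ccl2 and Ccl7 kept close proportions from library to library. The ratio of Ccl7 to Ccl2 FPKM lay between 1.43 and 2.79 in all 17 libraries, although Ccl2 itself ranged from 8.23 to 246 FPKM. At day 3 the ratio was 1.43 to 1.75 in irradiated skin and 1.89 to 1.92 in control skin. At day 9 the ratios of the arms overlapped (1.999 to 2.41 in irradiated and 1.99 to 2.56 in control skin). The libraries that were high in one gene, replicate 1 of irradiated day 6 and replicate 3 of control day 9 among them, were high in the other.

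Ccl12 (ENSMUSG00000035352, chromosome 11, 82101845 to 82103400) encodes monocyte chemoattractant protein 5, a CCR2 ligand of the mouse. Its average difference had the smallest standard error of the 8 genes. Control libraries held 16.7 and 16.1 FPKM at day 3, 20.0 and 17.7 at day 6, and 14.2, 9.33 and 14.3 at day 9. Irradiated libraries held 87.0, 108 and 98.3 FPKM at day 3, 69.2 and 45.2 at day 6, and 49.3, 42.1 and 38.0 at day 9. No irradiated library came down to the level of a control library on any day. Ccl12 rose by 1.91 on average (SE 0.175, limma adjusted p 0.000165), by 2.50 at day 3 (SE 0.30, adjusted p 0.00207) and by 1.71 at day 9 (SE 0.27, adjusted p 0.0076). The difference at day 6 was 1.52 with an adjusted p of 0.1.

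Ccl8 (ENSMUSG00000009185, chromosome 11, 82115185 to 82116799) encodes monocyte chemoattractant protein 2 and was the most abundant of the 6 ligand genes per length in 16 of 17 libraries. Its control libraries held 320.4 and 385 FPKM at day 3, 439.8 and 433 at day 6, and 131, 110.3 and 246 at day 9. Its irradiated libraries held 688, 770.3 and 935 FPKM at day 3, 1397 and 461 at day 6, and 621, 648 and 902 at day 9. All irradiated libraries were above all control libraries, although replicate 3 of irradiated day 6 exceeded the day-6 controls by little. Ccl8 rose by 1.42 on average (SE 0.30, limma adjusted p 0.0143), and by 2.22 at day 9 (SE 0.47, adjusted p 0.022). Without replicate 1 of control day 3 the average call was lost (1.38, adjusted p 0.0505). The day-9 call was lost without replicate 1 or 2 of the control (adjusted p 0.0798 and 0.107) or replicate 2 or 3 of the irradiated skin (0.0553 and 0.101).

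**Figure D2:**
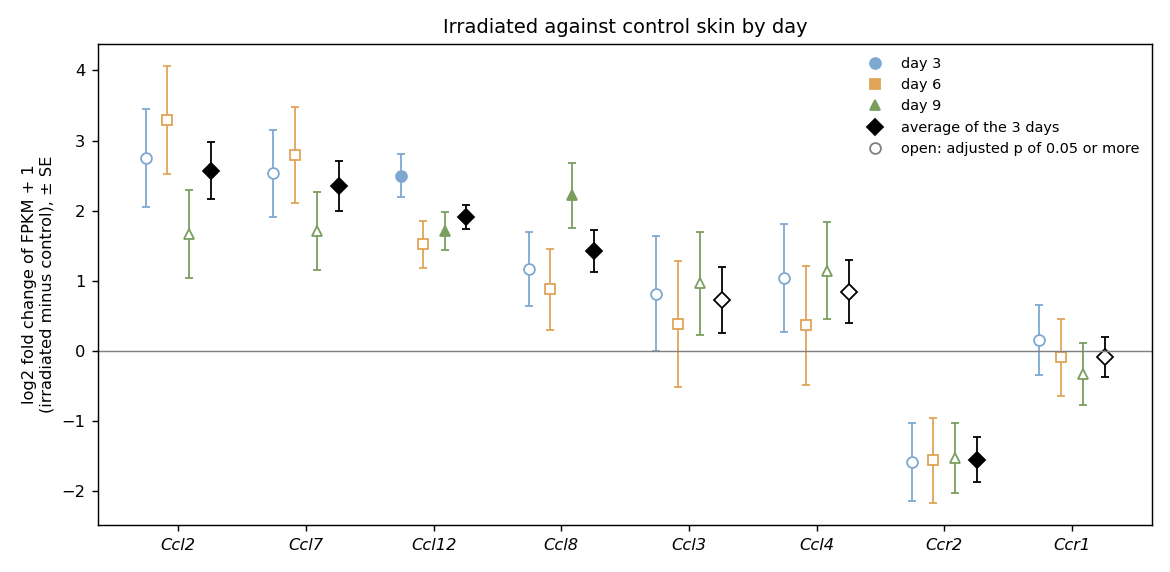
Log2 fold change of FPKM + 1, irradiated minus control, with its standard error, for each gene at days 3, 6 and 9 and averaged over them; filled symbols have a limma adjusted p under 0.05. The averages of Ccl2, Ccl7, Ccl12 and Ccl8 lie between 1.42 and 2.57 and that of Ccr2 at -1.55, while those of Ccl3, Ccl4 and Ccr1 are open symbols.

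Ccl3 and Ccl4, the MIP-1 genes, did not pass between the arms. Ccl3 (ENSMUSG00000000982, chromosome 11, 83647844 to 83649355) was at 121 and 33.7 FPKM in control skin at day 3, 65.4 and 79.9 at day 6, and 7.09, 4.42 and 32.6 at day 9. In irradiated skin it was at 119.6, 59.5 and 206 FPKM at day 3, 202 and 44.4 at day 6, and 27.5, 20.8 and 16.6 at day 9. The arms overlapped on each day, and the average difference was 0.73 (SE 0.47, limma adjusted p 0.394). Ccl4 (ENSMUSG00000018930, chromosome 11, 83662584 to 83664683) was at 96.4 and 29.0 FPKM at day 3, 51.0 and 71.9 at day 6, and 4.29, 2.31 and 24.1 at day 9 in control skin. Irradiated libraries held 112, 59.96 and 198 FPKM at day 3, 115 and 53.0 at day 6, and 21.2, 14.7 and 12.6 at day 9. Its average difference was 0.85 (SE 0.445, limma adjusted p 0.284), again with overlapping arms. The ratio of Ccl3 to Ccl4 was 0.838 to 1.92 over all libraries.

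Ccr2 (ENSMUSG00000049103, chromosome 9, 124101950 to 124113557), the receptor of the Ccl2, Ccl7 and Ccl12 proteins, went the other way from its ligands. Control libraries held 26.6 and 15.1 FPKM at day 3, 16.1 and 13.2 at day 6, and 6.35, 6.61 and 24.2 at day 9. Irradiated libraries held 4.63, 7.51 and 6.34 FPKM at day 3, 4.14 and 4.47 at day 6, and 2.55, 4.49 and 2.07 at day 9. On each day all irradiated libraries were below all control libraries of that day. Ccr2 fell by 1.55 on average (SE 0.32, limma adjusted p 0.0128), from 15.4 ± 7.82 FPKM (SD, n = 7) to 4.52 ± 1.78 (n = 8). The differences by day were -1.58, -1.56 and -1.52 (adjusted p 0.25, 0.266 and 0.0929), and the average call was lost without replicate 1 of control day 3 (-1.42, adjusted p 0.0517). In bulk skin, fewer cells that carry a transcript and less of it per cell cannot be told apart.

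Ccr1 (ENSMUSG00000025804, chromosome 9, 123962124 to 123968692), a receptor for MIP-1α and other chemokines on monocytes and neutrophils, did not pass. Control libraries held 44.7 and 22.4 FPKM at day 3, 22.5 and 25.7 at day 6, and 10.1, 8.40 and 31.8 at day 9. Irradiated libraries held 31.4, 36.5 and 38.7 FPKM at day 3, 28.8 and 17.6 at day 6, and 18.1, 10.8 and 6.69 at day 9. The arms overlapped on every day and the average difference was -0.09 (SE 0.29, limma adjusted p 0.893).

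Within single days fewer genes passed. At day 3, 1 of the 8 rose (Ccl12) and 0 fell, beside 1.56% and 0.288% of all tested genes. At day 6 none passed in limma, with 0.151% of genes rising and 0.124% falling; 4 members had an unadjusted p under 0.05, and limma-voom on the recovered fragments also called 0. At day 9, 2 rose (Ccl12 and Ccl8) and 0 fell, beside 2.33% and 3.05%. Counted by overlap alone, 4 genes were higher in all irradiated libraries at day 3, 4 at day 6 and 3 at day 9, and 1 (Ccr2) was lower at each day. The share of all tested genes that separated in this way was not counted. With 2 or 3 libraries per group, these overlap counts are therefore a description only. Replicate 3 of irradiated day 6 and replicate 3 of control day 9 each decided a count. Without the first, Ccl2, Ccl7 and Ccl12 passed at day 6 (adjusted p 0.0137, 0.0182 and 0.0234), and without the second, Ccl2 and Ccl7 passed at day 9 (0.0307 and 0.018).

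Whether irradiation acted differently on the 3 days was asked with an F test, which called 0 of the 8 genes and 0.0131% of all genes, 2 in number. The smallest adjusted p among the 8 was 0.399, for Ccl12. Its unadjusted p was 0.0957, no member had one under 0.05, and limma-voom on the recovered fragments called 0 members too. The difference between 1.17 for Ccl8 at day 3 and 2.22 at day 9 had an adjusted p of 0.497. A p that misses the threshold does not show that the effects were equal.

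Control skin changed with time as well. The comparisons of days 3, 6 and 9 with day 0 share the same 2 day-0 libraries. In these, skeletal muscle markers summed to 15400 to 18300 FPKM against 1100 to 3870 in all other libraries. Keratinocyte markers summed to 1880 to 3350 FPKM against 4650 to 16200. The 2 day-0 libraries also differed from each other in macrophage markers, which summed to 368 FPKM in replicate 1 and 1670 in replicate 2. The part of these differences in the results was not tested. At day 0 Ccl12 was at 3.00 and 8.49 FPKM and Ccl8 at 43.5 and 153. At day 3 both rose (Ccl12 by 1.495, limma adjusted p 0.00397, and Ccl8 by 2.09, adjusted p 0.0126), which is 2 of 8 against 25.8% of all genes, and 0 fell against 12.4%. The balance over all genes depends on the scaling: 3937 of 5824 called genes rose here, and 2435 of 5399 under median-of-ratios scaling, which moved the median of all genes from 0.156 to 0. Under that scaling Ccl12 (1.32, adjusted p 0.00772) and Ccl8 (1.88, adjusted p 0.0194) still rose. Ccr2 (1.64, adjusted p 0.0508) and Ccr1 (1.46, adjusted p 0.0511) were just short of the threshold. The day-0 libraries differed in Ccr2 (2.66 and 11.5 FPKM) and were closer in Ccr1 (12.2 and 9.73).

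At day 6 the same 2 genes rose against day 0 (Ccl12 by 1.69, limma adjusted p 0.00219, and Ccl8 by 2.40, adjusted p 0.00653), with 21.1% of all genes rising and 14.2% falling. At day 9 Ccl12 rose by 1.12 (adjusted p 0.00894), and Ccl3 fell by 2.14 (adjusted p 0.047) and Ccl4 by 2.82 (adjusted p 0.00953). That is 1 gene up and 2 down, beside 30.4% and 18% of all genes. Under median-of-ratios scaling 2391 of 5374 called genes rose at day 6 (3221 of 5394 without it) and 3671 of 7215 at day 9 (4644 of 7398), and the calls among the 8 genes did not change. Day-0 skin held 59.5 and 40.5 FPKM of Ccl3 and 63.1 and 44.2 of Ccl4. All 3 counts fell to 0 when only the 2 groups compared were fitted, and the day-9 count also fell to 0 without replicate 1 of day 0. Without that library Ccl8 no longer passed at day 3 (adjusted p 0.143) or day 6 (0.0732), and at day 3 it also missed without replicate 3 of control day 3 (0.0664). Without replicate 2 of day 0, Ccr2 passed on all 3 days (adjusted p 0.00952, 0.0253 and 0.0453) and Ccl8 passed at day 9 (0.0178). The day-9 call of Ccl3 was also lost without replicate 2 of day 0 (0.0887) or replicate 1 or 2 of control day 9 (0.12 and 0.147), and with all libraries under a pseudocount of 5 (0.0667), with no filter (0.0927) and in limma-voom (0.0602).

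Between day 3 and day 9, Ccl4 was the only one of the 8 genes called in control skin, and none was called in irradiated skin. In control skin Ccl4 fell by 2.83 (limma adjusted p 0.0258) and Ccl3 stood at -2.51 (adjusted p 0.0514), 1 of 8 genes falling and 0 rising, against 10.2% and 8.02% of all genes. Of all called genes 1224 of 2780 rose, and 1599 of 2744 under median-of-ratios scaling. With no filter on low values Ccl4 did not pass (adjusted p 0.0538). Without replicate 1 or 3 of control day 3, or replicate 1 or 2 of control day 9, Ccl4 did not pass (adjusted p 0.202, 0.0687, 0.0748 and 0.0896). Without replicate 3 of control day 9, Ccl3, Ccl4 and Ccr1 all fell (Ccl3 adjusted p 0.0137, Ccr1 0.0161). In irradiated skin limma called none of the 8 genes, beside 0.38% of genes rising and 0.583% falling. Of the 8, 4 had an unadjusted p under 0.05 (Ccl12, Ccl3, Ccl4 and Ccr1), all of them lower at day 9, and limma-voom on the recovered fragments called 1. All irradiated libraries of day 9 were below all those of day 3 in 6 of the 8 genes. The share of all tested genes that separated in this way was not counted, so this count is a description only. Among the 6 were Ccl4 at -2.73 (limma adjusted p 0.0791), Ccl3 at -2.37 (0.135), Ccr1 at -1.60 (0.103) and Ccl12 at -1.16 (0.0634). Ccl8 was at -0.15 and overlapped.

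Ligand and receptor levels were also read together within each library. The ratio of Ccl2 to Ccr2 FPKM was 0.622 to 3.81 in the 9 control libraries, day 0 included, and 9.30 to 59.4 in the 8 irradiated libraries. Replicate 3 of control day 9, the control with the most Ccl2, also held much Ccr2, and its ratio was 2.03 beside 1.61 and 1.67 in the other 2 libraries of its group. With Ccl2, Ccl7 and Ccl12 summed, the ratio to Ccr2 was 3.30 to 13.8 in control and 41.1 to 162 in irradiated skin. These ratios combine genes whose differences are given above and are a description, with no test of their own.

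**Figure D3:**
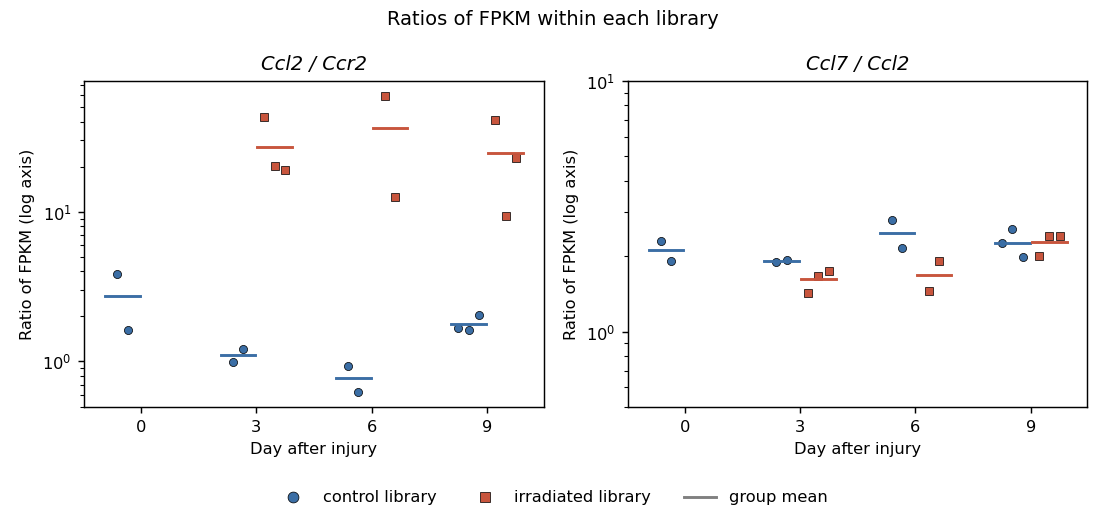
Ratios of FPKM within each library (log axes) against the day after injury, with 1 point per library and a bar at each group mean. The ratio of Ccl2 to Ccr2 is at most 3.81 in control and at least 9.30 in irradiated libraries, whereas the ratio of Ccl7 to Ccl2 stays between 1.43 and 2.79 in both arms.

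Ccl8 took the largest part of the ligand transcripts. Summed over the 6 ligand genes, FPKM was 164 to 633 in injured control skin and 767 to 2390 in irradiated skin. Ccl8 made up 46.3% to 79.8% of that sum in irradiated libraries and 50.9% to 74.4% in control libraries of days 3 to 9. The share of Ccl2 was 4.203% to 13.3% in irradiated and 1.31% to 10.6% in those control libraries. The sum separated the arms, and the shares overlapped.

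The 4 monocyte chemoattractant genes lie close together on chromosome 11, with Ccl11 between Ccl7 and Ccl12. The MIP-1 genes also lie close to each other, so the neighbours of both sets in the table were read as well. All 5 tested genes from Ccl2 to Ccl8 rose on average, the fifth being Ccl11 (1.57, SE 0.26, limma adjusted p 0.00363), which encodes the eosinophil attractant eotaxin. Near Ccl3 and Ccl4, which did not pass, Ccl6 rose by 1.86 (adjusted p 0.00415) and Ccl9 by 1.47 (adjusted p 0.0305), both genes of CCR1 ligands. Ccl5, a ligand of CCR1 encoded in the same stretch, was at 1.42 with an adjusted p of 0.0543.

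**Figure D4:**
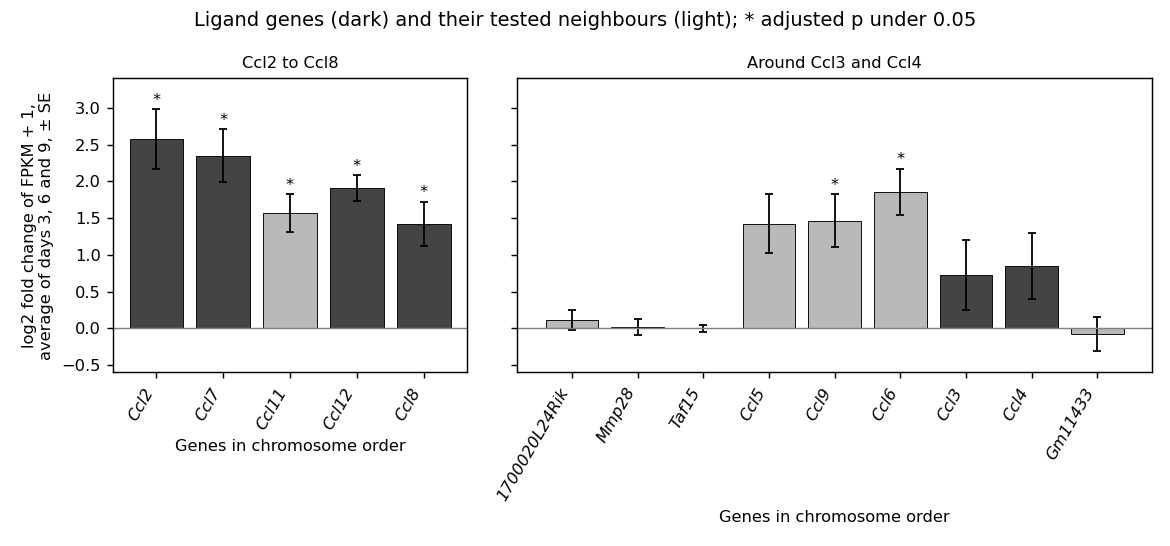
Average log2 fold change of FPKM + 1 with its standard error, irradiated minus control, for the 6 ligand genes (dark bars) and their tested neighbours (light bars) in chromosome order; asterisks mark a limma adjusted p under 0.05. All 5 genes from Ccl2 to Ccl8 are raised, and near Ccl3 and Ccl4 the asterisks stand at Ccl9 and Ccl6.

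A table of promoters from RefSeq (GRCm38.p6, 250 bases before to 50 after the start) held 5 of the 8 genes: Ccl12, Ccl8, Ccl3, Ccr2 and Ccr1. Ccl12 and Ccl8 are shown because these neighbours rose together, and Ccr2 because it fell. Capitals mark a match to a searched motif, and each sequence is given 5′ to 3′ on the strand of its gene.
Ccl12 (chr11:82101595-82101894, plus strand): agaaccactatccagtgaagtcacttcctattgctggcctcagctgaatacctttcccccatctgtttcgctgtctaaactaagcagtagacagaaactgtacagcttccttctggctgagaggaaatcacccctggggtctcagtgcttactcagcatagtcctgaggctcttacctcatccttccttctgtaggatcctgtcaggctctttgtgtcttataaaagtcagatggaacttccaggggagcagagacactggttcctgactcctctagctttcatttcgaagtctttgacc
Ccl8 (chr11:82114935-82115234, plus strand): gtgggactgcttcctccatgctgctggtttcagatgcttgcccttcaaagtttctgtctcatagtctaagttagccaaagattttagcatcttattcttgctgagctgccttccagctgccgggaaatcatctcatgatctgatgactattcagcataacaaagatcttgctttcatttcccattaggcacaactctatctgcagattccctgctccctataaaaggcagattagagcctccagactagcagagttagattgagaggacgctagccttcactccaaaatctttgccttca
Ccr2 (chr9:124101933-124102232, plus strand): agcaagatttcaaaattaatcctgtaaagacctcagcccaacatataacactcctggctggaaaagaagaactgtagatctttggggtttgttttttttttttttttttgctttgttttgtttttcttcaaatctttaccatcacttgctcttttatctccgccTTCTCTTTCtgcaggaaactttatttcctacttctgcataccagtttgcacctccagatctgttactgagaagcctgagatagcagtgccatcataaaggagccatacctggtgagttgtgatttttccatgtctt
Searched on both strands were 6 patterns: NF-κB sites as GGGNNTTTC and as GGGNNTTCC, the interferon element ISRE as GAAANNGAA, the STAT element GAS as TTCNNNGAA, AP-1 as TGANTCA and the GC box as GGGCGG. Of the 5 promoters, Ccl3 and Ccr2 each held 1 match, both to the ISRE pattern on the minus strand. Counted from the RefSeq start, it was at -86 in Ccr2 and at -39 in Ccl3. For Ccr2 that start lies inside the gene as placed above, which begins at 124101950. The Ccr2 match, and most of the window shown, therefore also lie inside that gene. Of 32851 promoters of that length in the table, 8.56% held the ISRE pattern, 4.36% and 5.82% the 2 NF-κB patterns, 8.3% GAS, 7.81% AP-1 and 35.7% the GC box. A match describes these letters only, and a missing match says nothing about a factor.

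The rest of the chemokine system was read from gene lists, in the average over days, where 4.36% of all tested genes rose and 2.57% fell. Of 13 other CC ligand genes, 10 were tested, and 3 rose and 1 fell on average (median 0.63, beside -0.01 over all genes tested); the 3 that rose were Ccl6, Ccl11 and Ccl9. Of 14 other chemokine receptors and decoy receptors, 9 were tested, and 2 of them fell. These were Ccr7, which guides dendritic cells and T cells to lymph nodes, at -0.94 (limma adjusted p 0.0108), and Cx3cr1, the fractalkine receptor of patrolling monocytes and macrophages, at -0.80 (adjusted p 0.0387). Ackr2, a decoy that clears CC chemokines, was at 0.22 (adjusted p 0.299).

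Known inducers of Ccl2 and the growth factors of monocytes did not pass. Of 11 tested cytokines and NF-κB genes 0 rose and 0 fell on average (median 0.04), with Tnf at 0.25 (limma adjusted p 0.696) and Il1b at -0.22 (0.87). Of 7 tested growth factor and receptor genes none passed either (median 0.11). The macrophage growth factor gene Csf1 was at 0.51 (adjusted p 0.0605), and its receptor gene Csf1r at -0.15 (0.787). Of 12 genes of signalling below chemokine receptors, 0 passed (median 0.07). Each of these medians stands beside -0.01 over all genes tested, and each count beside 4.36% of them rising and 2.57% falling.

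Markers of blood and skin cells moved with the same comparison, and their part in the results above was not tested. Their counts stand beside 4.36% of all tested genes rising and 2.57% falling. Of 15 monocyte markers, 2 rose and 0 fell on average, and their summed FPKM was 206 to 445 in control skin of days 3 to 9 and 257 to 712 in irradiated skin. Ly6c2, a marker of inflammatory monocytes, was at 0.58 (limma adjusted p 0.363). Of 14 macrophage markers, 8 rose and 0 fell, with sums of 1210 to 2440 in control and 1950 to 3570 in irradiated skin. Lyz2 held the largest part of these sums. It averaged 877, 827 and 1358 FPKM in control and 1007, 949 and 1129 in irradiated skin at days 3, 6 and 9. Of 8 tested dendritic cell markers, 4 fell and 0 rose. The summed FPKM of the 9 on the list was 414 to 1220 in control against 107 to 239 in irradiated skin, without overlap. That sum is almost all Cd74, H2-Aa and H2-Ab1, genes of class II antigen presentation, which averaged 421, 297 and 242 FPKM at control day 6. No other marker on the list averaged above 6.99 FPKM in any group, so the sum says little about those markers. The highest dendritic sum was that of replicate 3 of control day 9, the control of that day with the most Ccr2. That library also had the highest monocyte, macrophage and neutrophil sums of its group. Replicate 1 of control day 3 held the most Ccr2 of all libraries (26.6 FPKM), with a dendritic sum of 626. Of 9 neutrophil markers 0 passed, with sums of 302 to 19900 in control and 1870 to 9920 in irradiated skin. S100a8 and S100a9 held most of these neutrophil sums.

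The genes most like Ccl2 and Ccr2 over the 17 libraries were different sets. Likeness was read as Pearson's r of log2(FPKM + 1), a description over libraries that share groups and days. The ligand and receptor genes described here were left out of the ranking. Among those left out, Ccl7 had r 0.992 with Ccl2. The 5 other protein-coding genes most like Ccl2 were Bst1 (r 0.953), P2ry14 (0.938), Ms4a6d (0.928), Gca (0.927) and Fndc3a (0.926). The 5 most like Ccr2 were Kmo (0.892), Col4a3bp (0.869), Ciita (0.868), H2-Ab1 (0.851) and H2-Eb1 (0.85). Ciita encodes the transactivator of class II antigen presentation genes, and H2-Ab1 and H2-Eb1 encode chains of the class II molecules themselves. H2-Ab1 is also on the list of dendritic cell markers, and fell by 1.95 on average (limma adjusted p 0.00059).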

How the data were processed

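RNA from 17 skin libraries was sequenced as paired-end Smart-Seq2 reads, per the labels' protocols, and aligned to mm10 with HISAT2 2.2.1, per the submitters' processing notes. The counting tool is not given in the sources used here. FPKM values are the authors' own, as deposited. With GENCODE M21 gene lengths, the values of 31476 of 34140 genes were whole fragments within 0.01 (92.2%), and those of the other 2664 with a fitted length. On these fragments, limma-voom called 1022 genes in the average over days, against 1058 from FPKM. FPKM was analysed as log2(FPKM + 1), which understates changes of low genes. The filter kept genes that reached 1 FPKM in 2 or more libraries. A fit with 7 group means over 17 libraries was made with limma 3.58.1 (limma-trend, R 4.3.3). P-values were adjusted over all tested genes (Benjamini-Hochberg). The fit was tested on simulated data.

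The 8 genes and the lists were chosen with earlier results of these data known. Named beside them were Ccl5, Ackr2, Csf1, Csf1r, Tnf, Il1b and Ly6c2, up to 3 genes per pathway list that passed in the average whose higher arm averaged 1 FPKM or more, and the 5 genes most like Ccl2 and Ccr2. A gene covered by this rule and a sequence are not reported here. Of the other marker lists, averaged over days, 1 of 6 tested T and NK cell markers rose, 2 of 6 mast cell and 1 of 5 adipocyte markers rose, all 5 red blood cell markers fell, and 0 of 6 fibroblast, 5 endothelial, 6 keratinocyte and 5 skeletal muscle markers passed. Beside these, 4.36% of all tested genes rose and 2.57% fell. Alternatives were pseudocounts of 0.1 and 5, no filter, median-of-ratios scaling, only the groups compared, a replicate block, each library left out, and limma-voom on the recovered fragments, which was chosen after seeing the data.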

Additional observations from a re-analysis of the deposited data

How the results depend on the processing

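The average over days called 5 of the 8 genes under each of the other settings, and 3 to 5 with 1 library left out. With only the groups compared, the counts were 5 at day 3 (1 in the fit of all groups), 0 for control days 3, 6 and 9 against day 0 (2, 2 and 3), 0 for control day 9 against day 3 (1) and 4 for irradiated day 9 against day 3 (0). With a pseudocount of 5, 1 gene passed at day 6 and 1 in irradiated day 9 against day 3. With a pseudocount of 0.1, 2 passed in control day 9 against day 3, and with no filter 0. Limma-voom called 1 in irradiated day 9 against day 3. With a library left out, counts were 1 to 1 at day 3, 0 to 3 at day 6, 1 to 4 at day 9, 1 to 3 for control days 3 and 6 against day 0, 0 to 4 for day 9 against day 0, 0 to 3 for control day 9 against day 3, and 0 to 0 for irradiated day 9 against day 3 and for the F test. Over all genes tested, counts moved by more than 1.5 times in these cases. With only the groups compared they were 569 at day 3 (282 in the fit of all groups), 0 at day 6 (42), 2487 and 773 for control days 3 and 6 against day 0 (5824 and 5394), and 739 for irradiated day 9 against day 3 (147). With no filter they were 73 at day 6, 534 at day 9 (822), 66 for irradiated day 9 against day 3 and 26 for the F test (2). A pseudocount of 5 gave 263 for irradiated day 9 against day 3, limma-voom 18 at day 6, the replicate block 474 at day 9, and the F test called 0 or 1 under the pseudocount of 0.1, median-of-ratios scaling, the block, limma-voom and only the groups compared. No called direction reversed. A lone library left in a group was assumed to vary like the other groups. Where a control and an irradiated library shared day and number, the r of their residuals lay between -0.122 and 0.298. With so few libraries per group, these values cannot decide whether the numbers pair the samples. With a replicate block on day and number (correlation -0.103), 4 genes passed in control day 3 against day 0. Under the block 2 passed in control day 9 against day 3, and the other counts of the 8 genes did not change. The cause of these changes was not tested.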

Other observations

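Genes of signalling below chemokine receptors, a list that holds G protein subunits (Gnai2, Gnai3) and leukocyte exchange factors (Dock2, Vav1), were compared between injured and day-0 control skin. Of 12 genes, 7 rose at day 3, where 25.8% of all genes rose (median 0.78, beside 0.16 over all genes tested). At day 6, 3 rose, near the 21.1% of all genes (median 0.62, beside 0.11). At day 9, 5 rose and 1 fell, beside 30.4% and 18% (median 0.76, beside 0.15). Under median-of-ratios scaling 3, 1 and 4 of the 12 rose at days 3, 6 and 9. Of all 15271 genes tested, 2435, 2391 and 3671 rose under that scaling. The medians were 0.65, 0.53 and 0.66 beside 0, 0.02 and 0.04. The decoy receptor gene Ackr2 fell by 0.74 at day 3 (limma adjusted p 0.0231), by 0.82 at day 6 (0.0148) and by 0.73 at day 9 (0.0124), from 1.99 ± 0.414 FPKM (SD, n = 2) at day 0. Ccr7 rose by 1.23, 1.76 and 2.12 at days 3, 6 and 9 (limma adjusted p 0.0172, 0.00265 and 0.000251). Ackr2 and Ccr7 passed in the same directions under that scaling. The 3 comparisons share the 2 day-0 libraries.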
